A study of Homo sapiens with 6 samples.

Results

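Integrins are the paired alpha and beta receptors through which cells hold the extracellular matrix, and laminins are the three-chain proteins that make up much of the basement membrane and are among the main ligands of integrins. The genes described here are the integrin alpha chains, the integrin beta chains and the laminin alpha, beta and gamma chains, taken from the gene table by their symbols. They are 37 of the 35856 genes listed, and comprise 17 integrin alpha chains, 8 integrin beta chains and 12 laminin chains. ITGA8 was not analysed here.

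An integrin reaches the cell surface only as a pair of 1 alpha and 1 beta chain, and the pair decides the ligand. ITGB1 is the most widely shared beta chain and joins collagen-binding, laminin-binding and fibronectin-binding alpha chains, ITGAV binds proteins with the RGD peptide and can join several beta chains, and ITGB4 joins only ITGA6 in the hemidesmosome, where the pair holds laminin. A laminin is named by the numbers of its alpha, beta and gamma chains, so laminin 511 is made of LAMA5, LAMB1 and LAMC1. In carcinomas, these genes are known for their part in adhesion, migration and invasion.

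RNA was sequenced from HCCLM3 cells, an established human hepatocellular carcinoma line, in 3 libraries transfected with the LINC00862 vector and 3 libraries with the empty vector, which the labels call NC. Both groups are labelled as the same line in culture, with no other agent given in the labels, and the labels do not say whether the libraries of a group came from separate cultures, so the p-values measure only the spread between these libraries. The overexpressed long noncoding RNA LINC00862 had counts of 11, 21 and 6 in NC and 145, 121 and 76 in LINC00862, a log2 fold change of 3.22 with an adjusted p of 5.83e-04 by edgeR's quasi-likelihood test. Total counts lay between 58241123 and 68229070, and the 10 genes with the most counts held 8.42 to 11.7% of them in NC and 19.4 to 29.2% in LINC00862.

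The labelled cell type was checked against its markers. Of 11 hepatocyte and hepatoma markers, 6 were higher and 2 lower in LINC00862, and their summed FPKM was 3.05 to 3.60 in NC and 539 to 618 in LINC00862. Nearly all of the LINC00862 sum came from fibrinogen beta (FGB). ALB, the gene of serum albumin, had counts of 0, 0 and 7 in NC and 423, 394 and 282 in LINC00862, and APOA2 and GPC3 stayed under 10 counts in every library of both groups. The 2 markers that were lower were SERPINA1, the gene of alpha-1-antitrypsin, with counts of 363, 393 and 501 in NC and 29, 48 and 24 in LINC00862, and AFP, with 14, 24 and 30 in NC and 0 in each LINC00862 library. Epithelial markers summed to 200 to 293 FPKM in NC and 573 to 703 FPKM in LINC00862, with 8 of 10 higher, among them EPCAM at 0.547 ± 0.0819 (SD, n = 3) and 160 ± 10.8 FPKM (SD, n = 3). Across genes, the Spearman correlation of FPKM was 0.896 to 0.909 within a group and 0.754 to 0.767 between groups. Whether the cells of both groups are the same line was not tested, and every difference given here is between the libraries as labelled. In bulk RNA, fewer cells of a type and less RNA per cell cannot be told apart, and the part of these shifts in the results on integrins and laminins was not tested.

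The promoters of 4 genes are shown because these genes were the largest risers and fallers among the members with a promoter entry. Among the members with an entry, ITGB6 had the largest rise on the log2 scale and LAMA5 the largest rise in FPKM. The largest log2 falls among the members with an entry were those of LAMA4 and ITGA5. Each runs from 250 bases before to 50 bases after the start site given by RefSeq (GRCh38.p14), on the minus strand, 5′ to 3′, at chr2:160200223-160200522 for ITGB6, chr20:62367263-62367562 for LAMA5, chr6:112254518-112254817 for LAMA4 and chr12:54419217-54419516 for ITGA5. Capitals mark matches, on either strand, to the AP-1 site (TGANTCA), the E2-box (CACCTG), the GC box (GGGCGG), the TATA box (TATAAA) and the CCAAT box (CCAAT).
ITGB6: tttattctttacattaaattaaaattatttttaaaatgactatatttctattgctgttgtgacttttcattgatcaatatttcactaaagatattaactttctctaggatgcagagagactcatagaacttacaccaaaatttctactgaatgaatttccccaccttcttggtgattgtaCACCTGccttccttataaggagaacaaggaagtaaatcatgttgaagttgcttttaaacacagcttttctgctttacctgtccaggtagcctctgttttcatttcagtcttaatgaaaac
LAMA5: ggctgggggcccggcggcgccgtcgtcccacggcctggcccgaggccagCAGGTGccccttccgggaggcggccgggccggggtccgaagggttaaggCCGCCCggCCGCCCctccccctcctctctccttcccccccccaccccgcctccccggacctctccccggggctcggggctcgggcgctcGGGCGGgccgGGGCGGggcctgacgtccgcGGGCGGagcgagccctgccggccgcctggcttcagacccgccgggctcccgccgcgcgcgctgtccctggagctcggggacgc
LAMA4: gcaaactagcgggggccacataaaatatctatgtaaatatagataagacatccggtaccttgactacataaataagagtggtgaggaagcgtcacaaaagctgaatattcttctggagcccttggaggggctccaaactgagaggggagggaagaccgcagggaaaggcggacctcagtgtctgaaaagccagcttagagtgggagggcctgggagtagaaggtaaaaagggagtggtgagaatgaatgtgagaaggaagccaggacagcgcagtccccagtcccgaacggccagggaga
ITGA5: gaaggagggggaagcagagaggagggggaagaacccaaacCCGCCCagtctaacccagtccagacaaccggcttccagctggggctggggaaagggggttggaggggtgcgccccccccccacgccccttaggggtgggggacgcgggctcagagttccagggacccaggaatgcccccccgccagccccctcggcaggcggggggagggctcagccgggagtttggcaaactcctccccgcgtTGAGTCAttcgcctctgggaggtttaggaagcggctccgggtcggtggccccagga
The ITGB6 window held 1 E2-box, the sequence bound by ZEB and SNAI repressors, at 70 bases before the start site. The LAMA5 window held 1 E2-box and 5 GC boxes, the ITGA5 window held 1 GC box and 1 AP-1 site at 6 bases before the start site, and the LAMA4 window held none of the 5 motifs. Of all 35116 RefSeq promoter windows of this length, 7.71% held an AP-1 site, 20.6% an E2-box, 45% a GC box, 11.5% a TATA box and 34.6% a CCAAT box. Among the 25 members with an entry, the E2-box was in 2 of 5 that rose and 3 of 9 that fell. The AP-1 site was in 0 of 5 that rose and in 2 of 9 that fell, ITGA5 and LAMA3. For the GC box these counts were 3 of 5 and 5 of 9, for the TATA box 0 of 5 and 1 of 9. For the CCAAT box they were 2 of 5 and 0 of 9. The RefSeq start of LAMA5 lies 15323 bases upstream of the 5′ end of the gene as deposited, so the window shown is that of the longer RefSeq transcript.

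Of the 37 members, 34 had enough counts for edgeR's quasi-likelihood test and were called at an adjusted p (Benjamini-Hochberg) under 0.05. ITGAD, LAMB4 and LAMC3 had at most 19 counts in any library and were not tested. Expression differed for 20 of the 34 (58.8%), against 64.2% of the 20741 genes tested. Higher expression in LINC00862 was called for 6 members (17.6%; 34.4% of all genes) and lower expression for 14 (41.2%; 29.8% of all genes). The median log2 fold change was -0.43 over the members tested and 0.11 over all genes tested. FPKM, the count scaled by transcript length and library size, did not overlap between the groups for 24 of 34 (70.6%), near the 71.1% of all genes. With 3 libraries in each group, an exact two-sided permutation test of 1 gene cannot give a p below 0.1. The share of members called was therefore close to that of the transcriptome, and the split between directions leaned to the lower side.

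**Figure D1:**
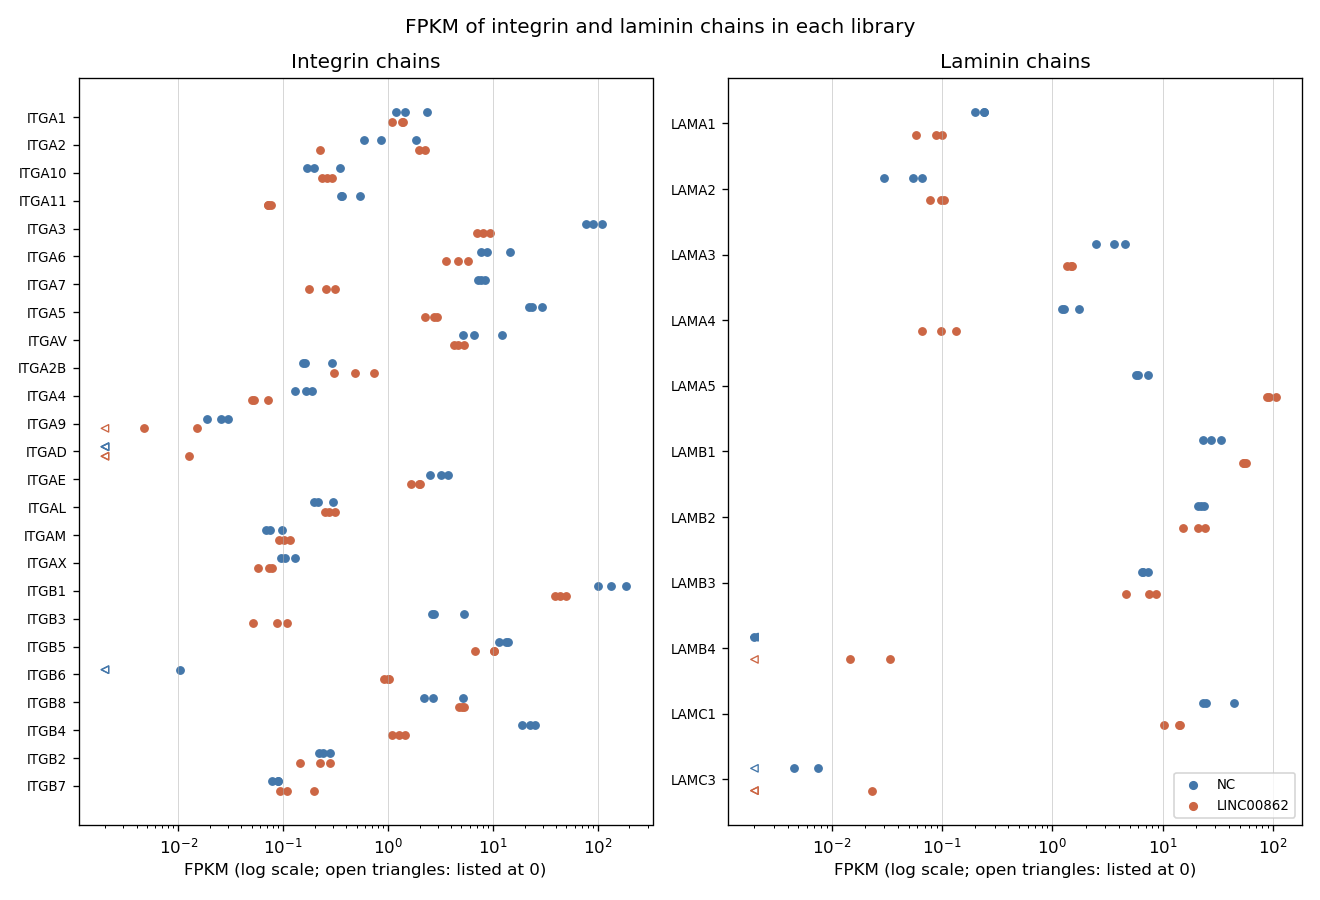
FPKM of the members named in the text in each library on a log axis, integrin chains at left and laminin chains at right, with NC in blue and LINC00862 in orange; open triangles stand for libraries in which the gene is listed at 0. ITGA3, ITGA5, ITGB4 and ITGB1 lie lower in LINC00862 and LAMA5 lies higher, from 5.68 to 7.29 FPKM in NC to 88.6 to 106 FPKM in LINC00862.

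The beta chain ITGB1, the shared partner of most alpha chains and the most abundant integrin transcript in both groups, fell. Its FPKM was 187, 133 and 101 in NC and 43.4, 49.2 and 39.4 in LINC00862, so that the lowest NC library was above the highest LINC00862 library. The log2 fold change of ITGB1 was -1.48 (SE 0.20, edgeR adjusted p = 1.84e-04), 2.80-fold lower. Although its level fell, its share of the summed FPKM of all beta chains was 76.1% ± 4.52 (SD, n = 3) in NC and 72.4% ± 1.91 (SD, n = 3) in LINC00862.

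Laminin-binding alpha chains were lower in all 3 cases. ITGA3, a receptor chain for laminin 511, was the most abundant alpha chain and measured 109, 77.5 and 89.5 FPKM in NC and 8.08, 9.27 and 7.02 FPKM in LINC00862, a log2 fold change of -3.32 (SE 0.17, edgeR adjusted p = 4.61e-07). ITGA7, known as the laminin receptor of muscle, had 7.21, 8.39 and 7.65 FPKM in NC and 0.175, 0.256 and 0.313 FPKM in LINC00862, a log2 fold change of -4.76 (SE 0.27, edgeR adjusted p = 8.99e-07). ITGA6, which joins ITGB1 or ITGB4, showed the smallest fall of the 3, from 14.5, 8.86 and 7.65 FPKM to 4.67, 5.79 and 3.58 FPKM, a log2 fold change of -0.96 (SE 0.22, edgeR adjusted p = 0.00459). None of the 3 overlapped between the groups. ITGA7 shares its position with genes on the opposite strand, of which BLOC1S1 was not called different, METTL7B rose by 2.27 and AC009779 (ENSG00000258311) fell by 1.99 on the log2 scale. Whether the counting used strand is not given in the sources used here.

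ITGB4, the hemidesmosomal beta chain, fell further than its partner ITGA6. It measured 25.3, 19.1 and 22.5 FPKM in NC and 1.45, 1.27 and 1.08 FPKM in LINC00862, and its log2 fold change was -3.96 (SE 0.17, edgeR adjusted p = 1.66e-07). The lowest NC library of ITGB4 was above 19 FPKM and the highest LINC00862 library was below 1.5 FPKM. The scarcer chain of the ITGA6 and ITGB4 pair was ITGA6 in NC and ITGB4 in LINC00862. GALK1 overlaps ITGB4 on the opposite strand and fell by 0.88 on the log2 scale.

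Among the RGD-binding alpha chains, ITGA5 fell, ITGA2B rose and ITGAV was not called. ITGA5, the alpha chain of the fibronectin receptor, had 29.4, 22.0 and 23.3 FPKM in NC and 2.72, 2.92 and 2.25 FPKM in LINC00862, a log2 fold change of -3.06 (SE 0.15, edgeR adjusted p = 3.94e-07). ITGAV measured 12.1, 6.66 and 5.13 FPKM in NC and 4.62, 5.28 and 4.21 FPKM in LINC00862. Its groups overlapped, and its log2 fold change of -0.56 had an SE of 0.25 and an edgeR adjusted p of 0.0754. The value of ITGAV moved with single NC libraries, to -0.20 (edgeR adjusted p = 0.218) without NC library 1 and to -0.77 (adjusted p = 0.0131), which was called, without NC library 3. ITGA2B, the alpha chain of the platelet fibrinogen receptor, stayed low at 0.290, 0.162 and 0.153 FPKM in NC and 0.479, 0.738 and 0.302 FPKM in LINC00862, a log2 fold change of 1.48 (SE 0.39, edgeR adjusted p = 0.00813). Of the 7 megakaryocyte and platelet markers, ITGA2B among them, 4 were higher in LINC00862. The sum of the 7 was 0.438 to 0.900 FPKM in NC and 3.99 to 4.62 FPKM in LINC00862. Most of the LINC00862 sum came from GP6, at 2.65 ± 0.222 FPKM (SD, n = 3). PF4 and PPBP were not called, and GP9 was not tested.

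The beta chains that join ITGAV moved in different directions. ITGB3, the vitronectin receptor chain, measured 5.35, 2.62 and 2.76 FPKM in NC and 0.0521, 0.0866 and 0.108 FPKM in LINC00862, a log2 fold change of -5.22 (SE 0.38, edgeR adjusted p = 4.28e-06) and the largest fall of any member. ITGB6, the epithelial chain that activates latent TGF-beta, went the other way. Its counts were 4, 0 and 0 in NC and 408, 386 and 384 in LINC00862, and the edgeR adjusted p was 1.03e-05. The ratio of the summed counts of ITGB6, scaled by library, was 314, with a 95% interval of 122 to 1160 that covers counting error only. All 4 counts of ITGB6 in NC came from NC library 1. Without it NC was at 0, and the fitted log2 fold change went from 8.19 to 11.64, a value that depends on the small count added in the fit. ITGB8, which also activates TGF-beta, measured 5.19, 2.68 and 2.21 FPKM in NC and 5.27, 5.12 and 4.73 FPKM in LINC00862. Its groups overlapped through NC library 1, and the call at a log2 fold change of 0.79 (SE 0.25, edgeR adjusted p = 0.0224) was lost without NC library 2 (adjusted p = 0.0879), without NC library 3 (adjusted p = 0.0555) and without LINC00862 library 1, 2 or 3 (adjusted p = 0.0623, 0.0517 and 0.0616). AC004130 overlaps ITGB8 on the opposite strand and rose by 4.52 on the log2 scale, to 788, 623 and 782 counts in LINC00862. ITGB5, the most abundant of the ITGAV partners other than ITGB1, had 14, 11.3 and 13.4 FPKM in NC and 10.2, 10.3 and 6.74 FPKM in LINC00862. Its log2 fold change of -0.34 (edgeR adjusted p = 0.103) was not called.

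Among the ITGAV partners other than ITGB1, the makeup of the summed FPKM shifted. ITGB3 held 17.5% ± 3.72 in NC and 0.566% ± 0.272 in LINC00862 (SD, n = 3 each), ITGB6 held 0.0141% ± 0.0245 and 6.52% ± 1.19, ITGB8 held 16.4% ± 4.57 and 33.6% ± 3.57, and ITGB5 held 66% ± 8.17 and 59.4% ± 4.94. The summed FPKM of the 4 partners was 24.5, 16.5 and 18.4 in NC and 16.4, 16.6 and 12.6 in LINC00862. The sum thus overlapped between the groups, whereas the shares of ITGB3, ITGB6 and ITGB8 did not.

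Of the 4 collagen-binding alpha chains, only ITGA11 was called. ITGA11, found mainly in fibroblasts, measured 0.540, 0.366 and 0.359 FPKM in NC and 0.0712, 0.0767 and 0.0717 FPKM in LINC00862, a log2 fold change of -2.33 (SE 0.29, edgeR adjusted p = 0.0001). Fibroblast markers, 2 of 8 higher and 2 lower, summed to 19.1 to 20.9 FPKM in NC and 11.8 to 15.8 FPKM in LINC00862. The 2 lower were FBLN1, from 12.1 ± 1.19 to 0.0499 ± 0.0204 FPKM (SD, n = 3 each), and PDGFRB, from 3.63 ± 0.679 to 0.0538 ± 0.0119 FPKM. COL1A1 rose from 2.43 ± 0.199 to 10.6 ± 2.45 FPKM and LUM from 1.06 ± 0.0217 to 1.86 ± 0.319 FPKM, so the markers did not move together. ITGA2, the collagen receptor chain of epithelia and platelets, was set by single libraries. Its counts were 959, 445 and 313 in NC and 1195, 1167 and 118 in LINC00862, and LINC00862 library 3 was the lowest of all 6 libraries. The log2 fold change of ITGA2 was 0.60 (SE 0.67, edgeR adjusted p = 0.46) with all libraries and 1.10 (adjusted p = 0.0488) without LINC00862 library 3. ITGA1 and ITGA10 differed by -0.19 and 0.31 on the log2 scale, with overlapping groups. ITGA1 overlaps PELO on the same strand, which had up to 3574 counts.

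The alpha chains ITGA4, a receptor chain for VCAM1 and fibronectin, and ITGA9, one for tenascin, were low in both groups. ITGA4 had counts of 135, 121 and 93 in NC and 44, 36 and 55 in LINC00862, a log2 fold change of -1.25 (SE 0.37, edgeR adjusted p = 0.0145). The call of ITGA4 was lost without LINC00862 library 1 (adjusted p = 0.0618) or library 2 (adjusted p = 0.0576). ITGA9 had 15, 11 and 17 counts in NC and 4, 0 and 9 in LINC00862, and its log2 fold change of -1.56 (SE 0.94) did not pass the test (edgeR adjusted p = 0.176).

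Leukocyte integrins were scarce in both groups. ITGAL, ITGAM, ITGAX, ITGB2 and ITGB7 had between 26 and 156 counts in each library and none was called, with log2 fold changes from -0.52 for ITGAX to 0.70 for ITGB7. ITGAD had 0 counts in 5 libraries and 4 in LINC00862 library 2. ITGAE, the chain of the E-cadherin receptor of intraepithelial T cells, was measured at a higher level, at 2.50, 3.17 and 3.71 FPKM in NC and 2.02, 1.97 and 1.67 FPKM in LINC00862. Its log2 fold change was -0.57 (SE 0.20, edgeR adjusted p = 0.0351), and the call was lost on leaving out NC library 2 or 3 or any LINC00862 library (adjusted p from 0.0781 to 0.112). ITGAE overlaps HASPIN on the opposite strand, which fell by 0.98 on the log2 scale. Of 10 leukocyte markers, 1 was higher (CD14) and 1 lower (CORO1A), and their sum was 5.35 to 6 FPKM in NC and 7.41 to 9.41 FPKM in LINC00862.

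**Figure D2:**
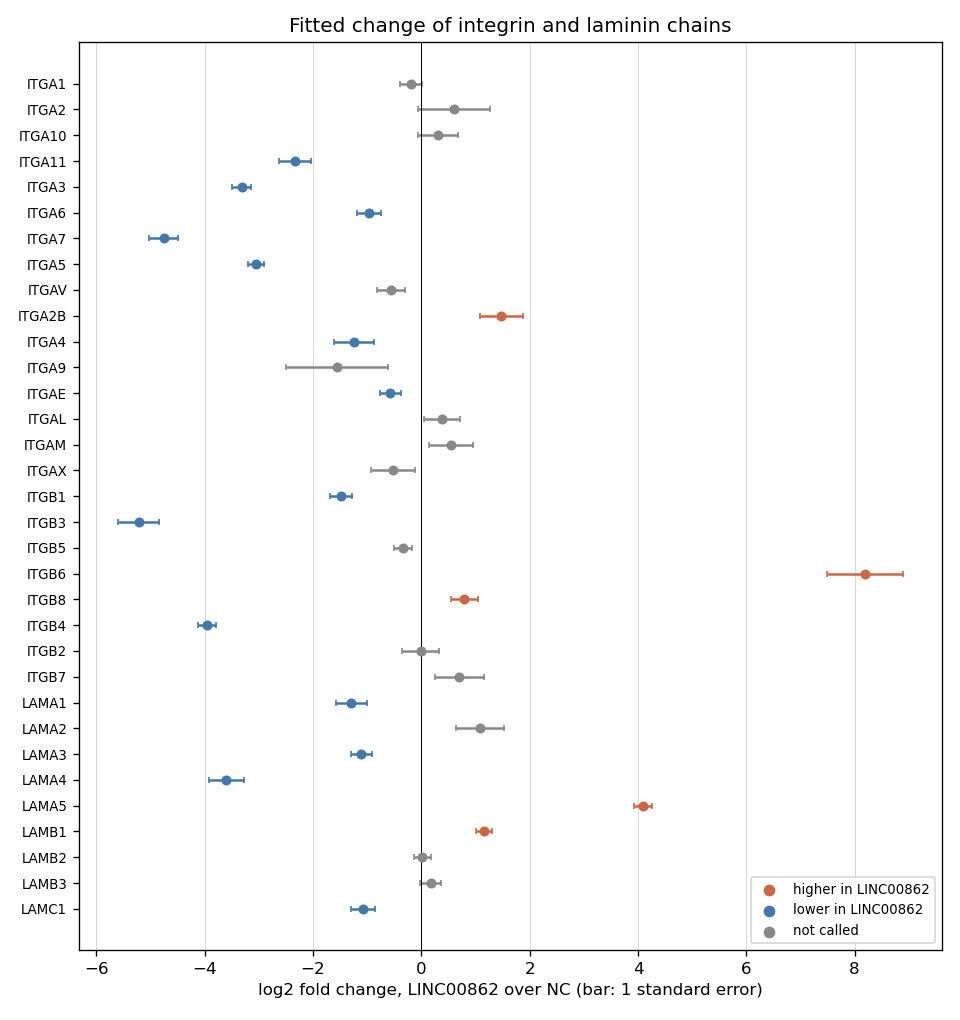
Log2 fold change of LINC00862 over NC for the tested members named in the text, in order of role, with bars of 1 standard error from edgeR; orange marks those called higher, blue the 14 called lower and grey the 14 not called. ITGB6 (8.19, with all its NC counts from NC library 1) and LAMA5 (4.09) lie farthest to the right, and ITGB3 (-5.22), ITGA7 (-4.76) and ITGB4 (-3.96) farthest to the left.

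Turning to the laminins, LAMA5 rose the most in absolute level. LAMA5, the alpha chain of laminins 511 and 521 in adult epithelial basement membranes, lies on chr20:62307955-62351989 (hg38) and measured 7.29, 6.02 and 5.68 FPKM in NC and 88.6, 106 and 91.7 FPKM in LINC00862. The log2 fold change was 4.09 (SE 0.17, edgeR adjusted p = 1.52e-07), 17.1-fold higher, and kept between 4.05 and 4.16 whichever library was left out. All other laminin alpha chains that were called fell. LAMA4, the alpha chain of vascular and mesenchymal basement membranes, measured 1.73, 1.21 and 1.28 FPKM in NC and 0.0658, 0.0983 and 0.135 FPKM in LINC00862, a log2 fold change of -3.60 (SE 0.32, edgeR adjusted p = 1.32e-05). Of 7 endothelial markers, 1 was higher (CDH5) and none lower, and their sum was 1.26 to 1.85 FPKM in NC and 4.51 to 6 FPKM in LINC00862. LAMA3, an alpha chain of epithelial laminins, measured 4.58, 3.60 and 2.51 FPKM in NC and 1.48, 1.51 and 1.35 FPKM in LINC00862, a log2 fold change of -1.11 (edgeR adjusted p = 7.46e-04). LAMA1, the embryonic chain, was near 0.2 FPKM in NC and fell by 1.29 on the log2 scale. LAMA2, the chain of muscle and nerve, had 20 to 46 counts in NC and 54 to 84 in LINC00862, and its log2 fold change of 1.08 was not called (edgeR adjusted p = 0.0552) but passed without NC library 3 (adjusted p = 0.0306).

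The laminin alpha pool accordingly changed from a mixed one to one made almost wholly of LAMA5. LAMA5 held 55% ± 3.03 (SD, n = 3) of the summed alpha chain FPKM in NC and 98.2% ± 0.151 (SD, n = 3) in LINC00862. In NC, LAMA3 held 30.4% ± 3.99 and LAMA4 12.2% ± 1.16, and in LINC00862 they held 1.5% ± 0.128 and 0.103% ± 0.0373. The sum of the 5 alpha chains was 11.6 ± 2.13 FPKM in NC and 97.3 ± 9.51 FPKM in LINC00862 (SD, n = 3 each).

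Of the beta and gamma chains, LAMB1 rose and LAMC1 fell. LAMB1, the beta chain of laminins 111, 411 and 511, rose from 33.8, 27.6 and 23.2 FPKM to 53.8, 56.8 and 54.2 FPKM, a log2 fold change of 1.15 (SE 0.15, edgeR adjusted p = 1.62e-04). LAMB2, the beta chain of laminin 521, and LAMB3, a beta chain of epithelial laminins, had log2 fold changes of 0.02 (SE 0.16) and 0.17 (SE 0.20), neither called, and their groups overlapped. LAMB4 had 0, 1 and 0 counts in NC and 19, 7 and 0 in LINC00862. LAMC1, the gamma chain of most laminins, fell from 44.3, 24.4 and 23.2 FPKM to 13.9, 14.3 and 10.2 FPKM, a log2 fold change of -1.07 (SE 0.22, edgeR adjusted p = 0.00242). LAMC3 had at most 12 counts in any library.

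**Figure D3:**
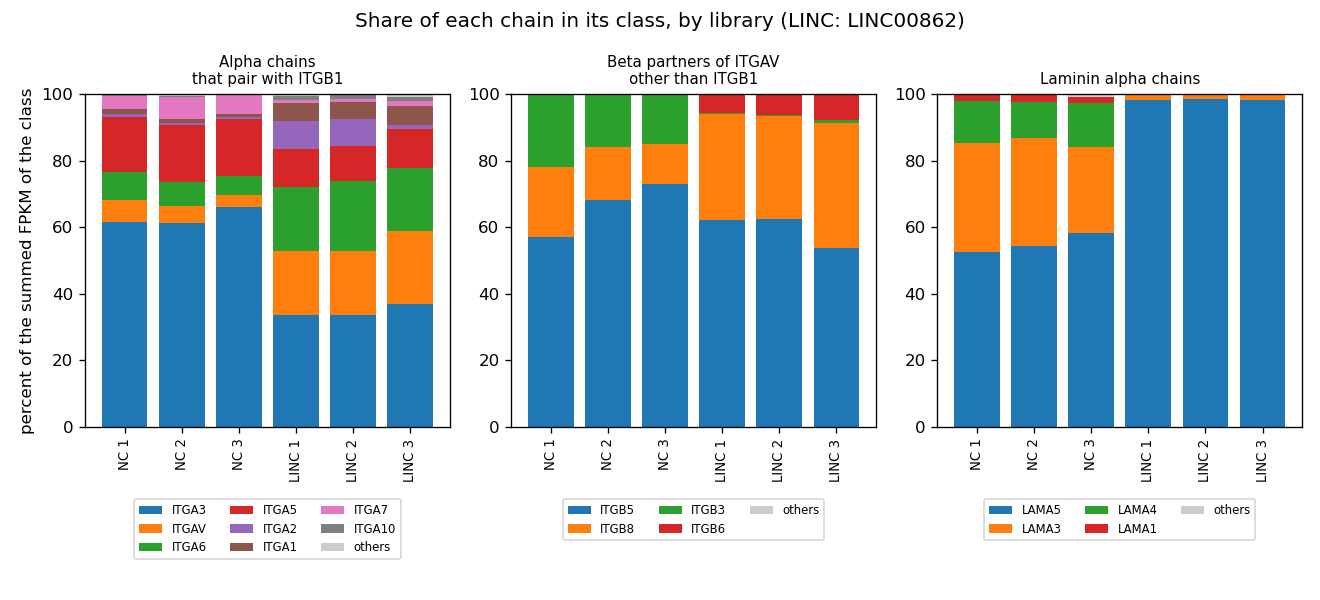
Share of each chain in the summed FPKM of its class, in percent, for each library (LINC stands for LINC00862). The classes from left to right are alpha chains that pair with ITGB1, beta partners of ITGAV other than ITGB1, and laminin alpha chains. LAMA5 fills 98.1 to 98.4% of the laminin alpha class in LINC00862 and 52.4 to 58.3% in NC, and ITGA3 holds 61.2 to 66% of the ITGB1 partners in NC and 33.6 to 36.8% in LINC00862.

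The alpha chains that pair with ITGB1 together measured 177, 127 and 136 FPKM in NC and 24.0, 27.5 and 19.1 FPKM in LINC00862. Within that smaller pool, ITGA3 went from 62.9% ± 2.68 to 34.7% ± 1.84, and ITGA5 from 17% ± 0.384 to 11.2% ± 0.606 (SD, n = 3 each). ITGAV went from 5.29% ± 1.52 to 20.2% ± 1.66 and ITGA6 from 6.94% ± 1.28 to 19.7% ± 1.16, although neither chain was higher in LINC00862. The NC pool was thus led by ITGA3 alone, and the LINC00862 pool was shared by ITGA3, ITGAV and ITGA6.

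Since an integrin or laminin needs all its chains, the lowest FPKM among the chains was taken as a description of each known pair or trimer, with no test. For the laminin-binding pairs of ITGB1, this value was 91.9 ± 15.7 FPKM in NC and 8.12 ± 1.12 FPKM in LINC00862 for ITGA3 (SD, n = 3 each), 10.3 ± 3.66 and 4.68 ± 1.10 FPKM for ITGA6, and 7.75 ± 0.598 and 0.248 ± 0.0694 FPKM for ITGA7. Taken pair by pair, the alpha chain was the scarcer chain in both groups, but ITGB1 is shared among its alpha partners. Those partners together measured 146 ± 26.8 FPKM in NC and 23.5 ± 4.25 FPKM in LINC00862. ITGB1 itself measured 140 ± 43.7 and 44 ± 4.96 FPKM. The hemidesmosomal pair of ITGA6 and ITGB4 went from 10.3 ± 3.66 to 1.27 ± 0.182 FPKM. The fibronectin receptor pair of ITGA5 and ITGB1 went from 24.9 ± 3.96 to 2.63 ± 0.343 FPKM, and the pair of ITGAV and ITGB3 from 3.57 ± 1.54 to 0.0821 ± 0.0280 FPKM. The pairs of ITGAV with ITGB5 (7.96 ± 3.64 and 4.70 ± 0.539 FPKM) and with ITGB8 (3.36 ± 1.60 and 4.65 ± 0.459 FPKM) overlapped between the groups, and the pair with ITGB6 stood at 0.972 ± 0.0467 FPKM in LINC00862, where ITGB6 was the scarcer chain.

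For the laminins, the scarcest chain differed from trimer to trimer. The lowest chain value of laminins 511 and 521 rose from 6.33 ± 0.849 to 12.8 ± 2.27 FPKM (SD, n = 3 each), about 2.02 times, less than LAMA5 itself. The scarcest chain of both was LAMA5 in NC and LAMC1 in LINC00862. Both trimers share these chains, so their value is the same, with no allowance for a chain shared between trimers. Laminins 411 and 421 went from 1.41 ± 0.287 to 0.0996 ± 0.0346 FPKM, both set by LAMA4.

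**Figure D4:**
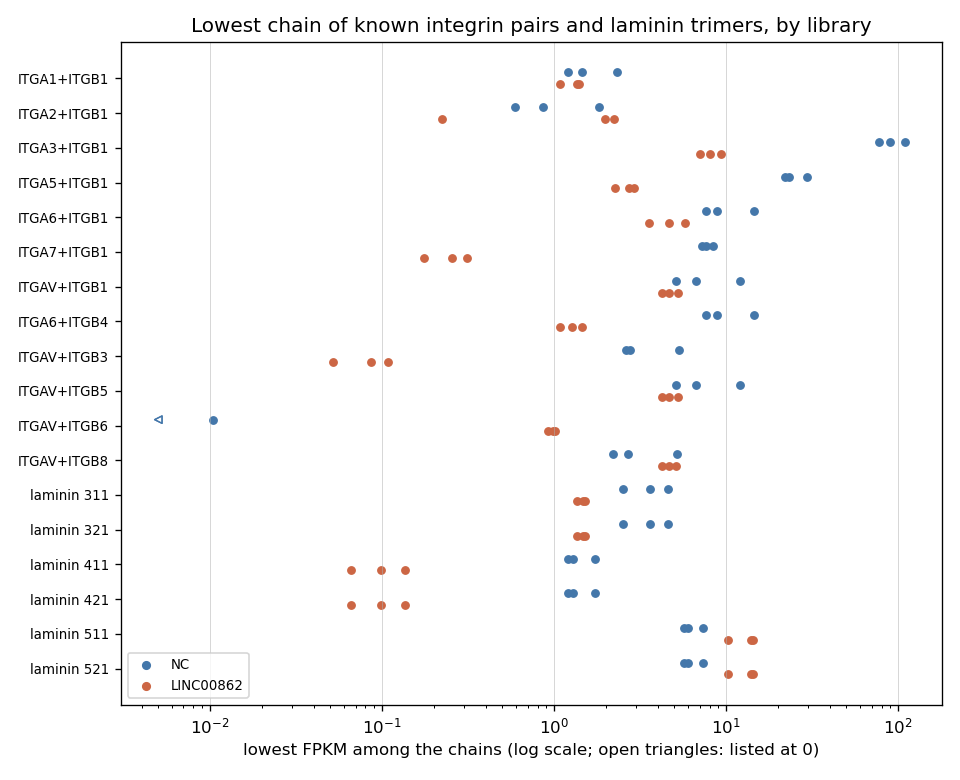
Lowest FPKM among the chains of integrin pairs and laminin trimers in each library, on a log axis, with NC in blue and LINC00862 in orange; open triangles stand for a chain listed at 0. Laminins 511 and 521 and the pair of ITGAV with ITGB6 lie higher in LINC00862 without overlap, the pairs of ITGAV with ITGB1, ITGB5 and ITGB8 overlap, and the pairs of ITGA3, ITGA5 and ITGA7 with ITGB1 lie lower.

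The rise of LAMA5 was next set beside its neighbours on the chromosome. LAMA5 and ADRM1, a proteasome receptor gene on the opposite strand, share 908 bases, of which 244 are exonic in both in GENCODE 29. ADRM1 rose as well, by 3.01 on the log2 scale. The shared exonic bases make up at most 17.8% of the length of an ADRM1 transcript, and with that share of the ADRM1 count taken from LAMA5, which assumes even coverage, the log2 ratio was 4.37 in place of 4.09. Within 500000 bases of LAMA5, 20 of 30 other tested genes were higher and 7 lower by edgeR, with a median log2 fold change of 3.00. Over chromosome 20 as a whole, 26.9% of the genes tested were higher and 40.2% lower, with a median of -0.25.

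LAMA5 lay within an unbroken run of 20 tested genes, from OSBPL2 to LINC00659 (chr20:62231922-62776982), every one of them higher in LINC00862. Log2 fold changes ran from 2.36 for SLCO4A1 to 8.20 for RBBP8NL among the 16 with counts in NC, and 4 had none in NC, among them LINC00659 with 0, 0 and 0 counts in NC and 574, 477 and 508 in LINC00862. OSBPL2, an oxysterol-binding protein gene, had counts of 2803, 2537 and 2412 in NC and 130262, 112975 and 111423 in LINC00862. The ribosomal protein gene RPS21, upstream of LAMA5, had a log2 fold change of 2.99. Just outside the run, MTG2 stood at -0.37 and MRGBP at -1.19 on the log2 scale. The run was singled out after its values were seen, and whether the DNA of this region differs between the groups was not tested. Neighbours within 500000 bases were counted around all 34 tested members, and only some of these windows are given here. Of all genes tested, 34.4% were higher and 29.8% lower, with a median log2 fold change of 0.11. Around ITGB8, 4 of 7 neighbours were higher and 1 was lower, with a median of 4.53. AC004130, which overlaps ITGB8, was among these neighbours. Around ITGA4, 3 of 4 were higher and 1 lower, with a median of 2.08. Around LAMA3, 8 of 14 were higher and 1 lower (median 1.36), around ITGA5, 11 of 21 higher and 4 lower (median 0.97), around ITGA3, 11 of 30 higher and 11 lower (median -0.32), and around ITGB6, 0 of 10 higher and 4 lower (median -0.74).

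**Figure D5:**
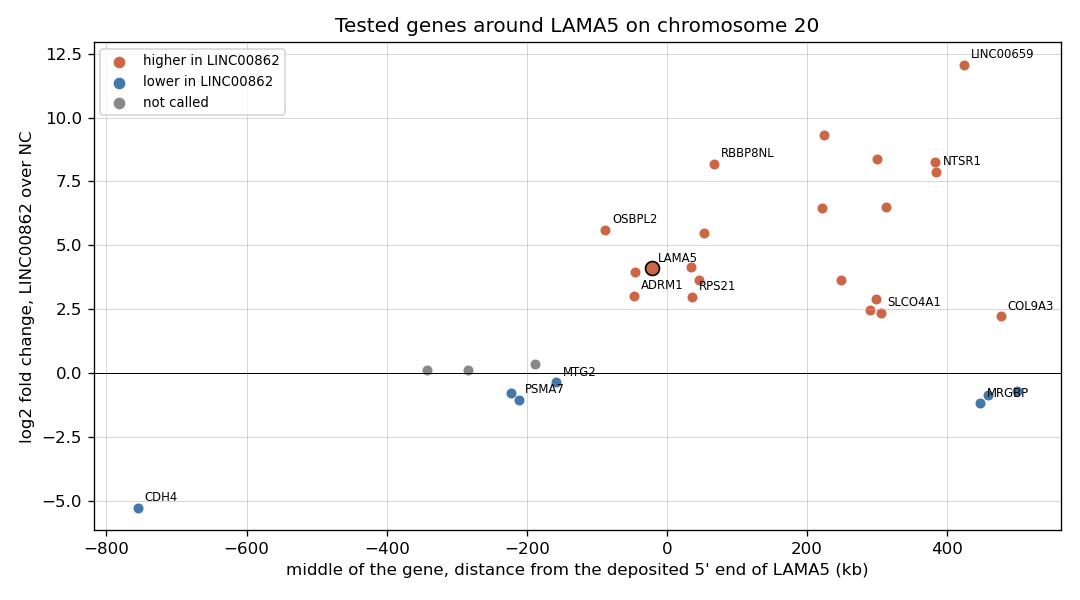
Log2 fold change of LINC00862 over NC (edgeR) for LAMA5, ringed in black, and the 30 tested genes around it, against the distance of each gene's middle from the deposited 5′ end of LAMA5 in kb; orange is higher, blue lower and grey not called. The run of higher genes is bounded by MTG2 and MRGBP below 0, and the 4 genes with 0 counts in every NC library are drawn at fitted values that depend on the small count added in the fit.

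The genes that work with integrins inside the cell were mostly lower. Of 30 integrin-linked adhesion proteins, 4 were higher and 20 lower by edgeR, with a median log2 fold change of -1.82, where 34.4% of all genes tested were higher, 29.8% lower and the median was 0.11. The same background applies to the 3 lists of partners that follow. Integrin activation needs talin and kindlin, and TLN1 fell from 32.7 ± 8.92 to 8.26 ± 1.27 FPKM (SD, n = 3 each) and the kindlin FERMT2 from 11.6 ± 3.48 to 1.94 ± 0.108 FPKM, while the epithelial kindlin FERMT1 rose from 0.120 ± 0.0604 to 1.05 ± 0.167 FPKM. The actin cross-linker FLNA, which binds integrin tails, fell from 221 ± 48.0 to 5.29 ± 1.73 FPKM, a log2 fold change of -5.22 (SE 0.28, edgeR adjusted p = 6.23e-07). The kinase SRC (-4.72) fell as well, the PINCH adaptor LIMS2 went from 1104, 1438 and 1708 counts in NC to 4, 13 and 0 in LINC00862, and the parvin PARVB rose by 5.75 on the log2 scale. TLN1 and FERMT2 were named after their values were seen, as were COL4A3, TGFB1 and COL17A1 among the partners and ligands that follow.

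Most matrix partners of the laminins that were called were lower. Of 13 basement membrane partners, 12 were tested, of which 1 was higher and 8 lower, with a median log2 fold change of -3.69. NID1, the nidogen that links laminin to collagen IV, fell from 4.73 ± 2.03 to 0.0506 ± 0.0198 FPKM (SD, n = 3 each), a log2 fold change of -6.34 (SE 0.40, edgeR adjusted p = 1.70e-06). SPARC, a collagen-binding matrix protein, fell from 195 ± 16.7 to 1.23 ± 0.0657 FPKM, and the collagen IV chain COL4A2 from 8.37 ± 2.18 to 0.313 ± 0.0152 FPKM. COL4A3, the only partner that rose, went from 0.0926 ± 0.0150 to 0.325 ± 0.0383 FPKM.

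Other ligands of integrins followed the same direction in most cases. Of 19, 4 were higher and 12 lower, with a median log2 fold change of -2.56. CCN1, a matricellular ligand of several integrins, fell from 348 ± 8.48 to 4.32 ± 0.107 FPKM (SD, n = 3 each), and MFGE8, a ligand of the ITGAV pairs, from 12.6 ± 0.735 to 0.168 ± 0.0404 FPKM. THBS2 had counts of 650, 447 and 417 in NC and 2, 0 and 0 in LINC00862. FBLN5, an elastic fibre protein with an RGD site, rose from 0.0641 ± 0.0293 to 2.51 ± 0.17 FPKM, and LTBP1, which holds latent TGF-beta in the matrix for ITGAV pairs to activate, from 0.246 ± 0.0569 to 1.72 ± 0.124 FPKM. TGFB1, the latent growth factor itself, fell from 16.4 ± 3.20 to 0.303 ± 0.0590 FPKM, a log2 fold change of -5.56 (edgeR adjusted p = 2.98e-07). Of the 6 hemidesmosome proteins and laminin receptors that are not integrins, 1 was higher and 3 lower. The higher one was COL17A1 (1.72 on the log2 scale), which was low in both groups, at 0.042 ± 0.00788 and 0.126 ± 0.025 FPKM. The lower ones were the tetraspanin partner of laminin-binding integrins CD151 (-2.97), plectin PLEC (-1.80) and dystroglycan DAG1 (-1.30).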

How the data were processed

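Each library was made from polyadenylated RNA with dUTP marking of the second strand and adapters with molecular identifiers, and was sequenced in paired reads. The authors deposited an unnormalized count of reads and an FPKM value per gene in each library, FPKM being scaled by transcript length and library size. The submitters' processing notes name cutadapt 1.9, HISAT2 2.0.4, UMI-tools, StringTie 1.3.4d, DESeq2, edgeR and the build hg38. Whether strand was used in counting, and whether reads were collapsed by molecular identifier before it, is not given in the sources used here.

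The counts were filtered with filterByExpr, scaled by TMM and compared between the 3 NC and 3 LINC00862 libraries by the quasi-likelihood test of edgeR 4.0.16 in R 4.3.3, adjusted by Benjamini-Hochberg over all 20741 genes tested at a false discovery rate of 0.05. Levels are compared between genes as FPKM. The 37 genes are those whose symbols match integrin or laminin chains; the values of 1 of them are not reported here. All 37 are in the counts of members. From each list of partner genes, up to 3 called risers and 3 called fallers are named whose FPKM averaged 1 or more in a group and did not overlap. Exceptions are marked in the text. The members and lists were chosen with earlier results of these data known. No pair of libraries agreed within sampling noise. Replicate numbers in the labels did not pair the libraries (correlations of deviations -0.049, -0.025 and -0.007). The fit was also run on simulated counts in which few genes changed. In these data 64.2% of the genes tested were called, so that simulation does not show how the fit behaves here. Alternatives were DESeq2 1.42.0, other scalings and filters, a replicate block, each library left out, limma-trend (limma 3.58.1) on log2(FPKM + 1) and log2(FPKM + 0.1), a false discovery rate of 0.01 and a test against a fold change of 2. Total counts were 58241123 to 68229070, and intervals cover counting error only.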

Additional observations from a re-analysis of the deposited data

How the results depend on the processing

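Of 510 values of the 34 tested members under 15 alternative settings, 455 kept their direction and their side of the threshold, 31 lost and 8 gained the call with the same direction, and 16 changed sign. For 11 of the 20 called members no setting changed the call. The test against a fold change of 2 left 8010 of all genes, 3 members higher and 8 lower. Leaving out 1 library gave 12063 to 14285 genes called, 5 to 6 members higher and 12 to 14 lower, 24 to 25 adhesion proteins, 4 of 6 hemidesmosome proteins and laminin receptors, 9 to 10 basement membrane partners and 15 to 16 other ligands. With a replicate block, 12098 genes were called, and 6 members were higher and 12 lower, ITGAE (-0.536, adjusted p = 0.08) and ITGA4 (-1.275, adjusted p = 0.0519) losing the call. ITGAE and ITGB8 each lost the call in 10 of 15 settings.

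The values that changed sign belonged to members that were never called. ITGB2 was 0.045 with DESeq2 and 0.199 with upper quartile scaling, and -0.218 to 0.175 with 1 library left out. LAMB2 was -0.135 with scaling by library size, -0.159 and -0.167 with limma-trend at pseudocounts of 1 and 0.1, and -0.098 to 0.147 with 1 library left out. LAMB3 was -0.022 and -0.031 with limma-trend, and ITGA1 was 0.024 with upper quartile scaling and -0.349 to 0.063 with 1 library left out. Scaling moved the median log2 fold change of all genes from 0.11 (TMM) to 0.16 (DESeq2), 0.32 (upper quartile) and -0.05 (library size), and the share of higher genes among those called from 53.6% to 55.1, 60.4 and 48.5%. The causes were not tested.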

Other observations

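The order of the libraries within each group was not even over the members. NC library 1 was the highest NC library for 20 of 34 members (58.8%; 41.5% of all genes tested), and LINC00862 library 3 was the lowest LINC00862 library for 19 of 34 members (55.9%; 38.7% of all genes tested).

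ITGBL1, a gene whose protein resembles integrin beta chains but which lies outside the symbols used, fell from 8.42 ± 2.52 to 0.0320 ± 0.0451 FPKM (SD, n = 3 each; log2 fold change -7.78, edgeR adjusted p = 3.66e-05). ITGB1-DT, a noncoding transcript that overlaps ITGB1 on the opposite strand, rose from 0.218 ± 0.0334 to 1.72 ± 0.174 FPKM while ITGB1 fell. Both were named after their values were seen.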
